A study of Mus musculus with 2 samples.

Results

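The genes described here are 8 subunits of the GABA-A receptor, Gabra2, Gabra3, Gabra4, Gabra5, Gabrb1, Gabrg1, Gabrg3 and Gabrd, which were matched by Ensembl identifier to 8 of the 32285 rows of each deposited count matrix. Nuclei of the mouse amygdala were measured by droplet single-nucleus RNA sequencing with a 10x 5' kit, in 1 library labelled Sema6d-/- and 1 labelled WT. Both come from strain C57BL6/J at 6 to 8 weeks of age, with no treatment named in the labels, and neither the number of animals in a library nor their sex is stated there. The comparison asks how the same cell types express these genes in mice labelled as lacking Sema6d, a transmembrane semaphorin, and in wild-type mice.

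GABA-A receptors are chloride channels that open when GABA binds, and they carry most fast inhibition in the brain. Each channel combines alpha, beta and, in most cases, gamma or delta subunits, and the mixture sets the channel's place in the membrane, its kinetics and its response to drugs. Receptors with different alpha subunits are known for different parts of the anxiety-reducing and sedative effects of benzodiazepines.

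After filtering, the Sema6d-/- library held 7911 nuclei with a median of 6418 UMIs (unique molecular identifiers, 1 per captured RNA molecule), and the WT library held 10369 nuclei with a median of 7196 UMIs. Marker genes, none of them a GABA-A subunit, placed 83.2% of nuclei in the Sema6d-/- library and 82.0% in the WT library in a class, and within the classes 14 gates held at least 50 nuclei in each library. Neuron gates are called by their marker genes or as striatal-like, and glial gates by a cell type with the ending -like. Excitatory neurons fall into the Nr4a2 Ntng2 gate, the Rspo2 gate and the other excitatory neurons, which hold neither signal. Levels are given as CPM, the UMIs of a gene per 1000000 UMIs of the gate. For Sema6d itself the inhibitory neurons showed 723 CPM in the Sema6d-/- library and 679 CPM in the WT library, and the excitatory neurons 707 CPM in Sema6d-/- and 575 CPM in WT. The deleted part of the gene is not stated, so this level checks nothing, and the names of the libraries are those of the labels. The mitochondrial share of UMIs in inhibitory neurons had a median of 0.319% in the Sema6d-/- library and 0.691% in the WT library, and the activity-induced genes Homer1, Arc, Npas4 and Fos summed to 276 CPM in Sema6d-/- and 436 CPM in WT. The part of these library differences in the ratios below was not tested. The libraries shared 112 nucleus barcodes, and leaving those nuclei out changed no count of members past the fold in a cell class below. With 1 library per genotype nothing was tested, and each interval is an exact 95% interval that covers counting error only. A member is called higher or lower where CPM in the Sema6d-/- library over CPM in the WT library lies past a log2 ratio of 0.32 in either direction, the fold below, in a gate with at least 100 UMIs of that gene over both libraries.

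The start regions of 3 members are shown because these genes carry the patterns below. Gabrg1 is the member with the most gates past the fold. Gabra4 is highest in the striatal-like neurons, and Gabra5 in the Rspo2 neurons, with the other excitatory neurons next. Of the 8 members, 7 had an entry in the RefSeq promoter table (build GRCm38.p6). Each line gives the bases from 250 to 56 before the RefSeq start, 5′ to 3′ on the gene's own strand, in a stretch that overlaps no GENCODE exon. The stretches are chr5:70842673-70842867 (minus strand) for Gabrg1, chr5:71658364-71658558 (minus strand) for Gabra4 and chr7:57510115-57510309 (minus strand) for Gabra5. Capitals mark matches to 1 of 6 motifs searched on both strands: TGACGTCA (the cAMP response element), GCGTGGGCG (the Egr site), CCCGCCC (the core of the GC box), TATAAA (the TATA box), CANNTG (the E-box) and TGANTCA (the AP-1 site).
Gabrg1: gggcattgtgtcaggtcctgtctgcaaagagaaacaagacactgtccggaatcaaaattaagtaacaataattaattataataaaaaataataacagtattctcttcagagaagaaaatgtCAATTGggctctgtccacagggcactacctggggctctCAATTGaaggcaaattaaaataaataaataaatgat
Gabra4: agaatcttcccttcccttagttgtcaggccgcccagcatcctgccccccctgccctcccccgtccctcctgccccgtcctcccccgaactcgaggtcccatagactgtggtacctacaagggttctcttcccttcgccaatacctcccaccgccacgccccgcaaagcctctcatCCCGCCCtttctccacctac
Gabra5: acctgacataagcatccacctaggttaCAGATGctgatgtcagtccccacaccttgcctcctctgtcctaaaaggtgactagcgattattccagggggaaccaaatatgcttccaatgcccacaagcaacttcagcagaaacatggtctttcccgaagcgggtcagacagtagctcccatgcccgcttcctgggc
The Gabrg1 stretch was 34.4% G or C, and 5.16% of the 32841 promoter stretches of the same length held less. The Gabra4 stretch was 63.6% G or C, with 82.9% of stretches below it, and the Gabra5 stretch 52.3%, with 51.9% below it. The E-box matched at 2 places in Gabrg1 and 1 in Gabra5, and 58.3% of all stretches held it. The GC box core matched once in Gabra4 and stood in 15.6% of all stretches. The other motifs had no match in these stretches. Since the stretches end 56 bases before the start, a TATA box nearer the start would not be seen. The Gabra4 stretch lies within the annotated span of Gabrb1.

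Gabrg1, Gabra2, Gabra4 and Gabrb1 lie in 1 stretch of chromosome 5, between 70751047 and 72149037 in mm10, and Gabrg3 and Gabra5 lie together on chromosome 7, between 56716465 and 57510059. Gabra3 is on the X chromosome, from 72432681 to 72656848, and Gabrd on chromosome 4, from 155384980 to 155398112. Gabra4 and Gabrb1 run in opposite directions and their annotated spans overlap by 196 bases. Whether the counting used strand is not stated, so reads from this overlap could have been given to either gene.

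**Figure D1:**
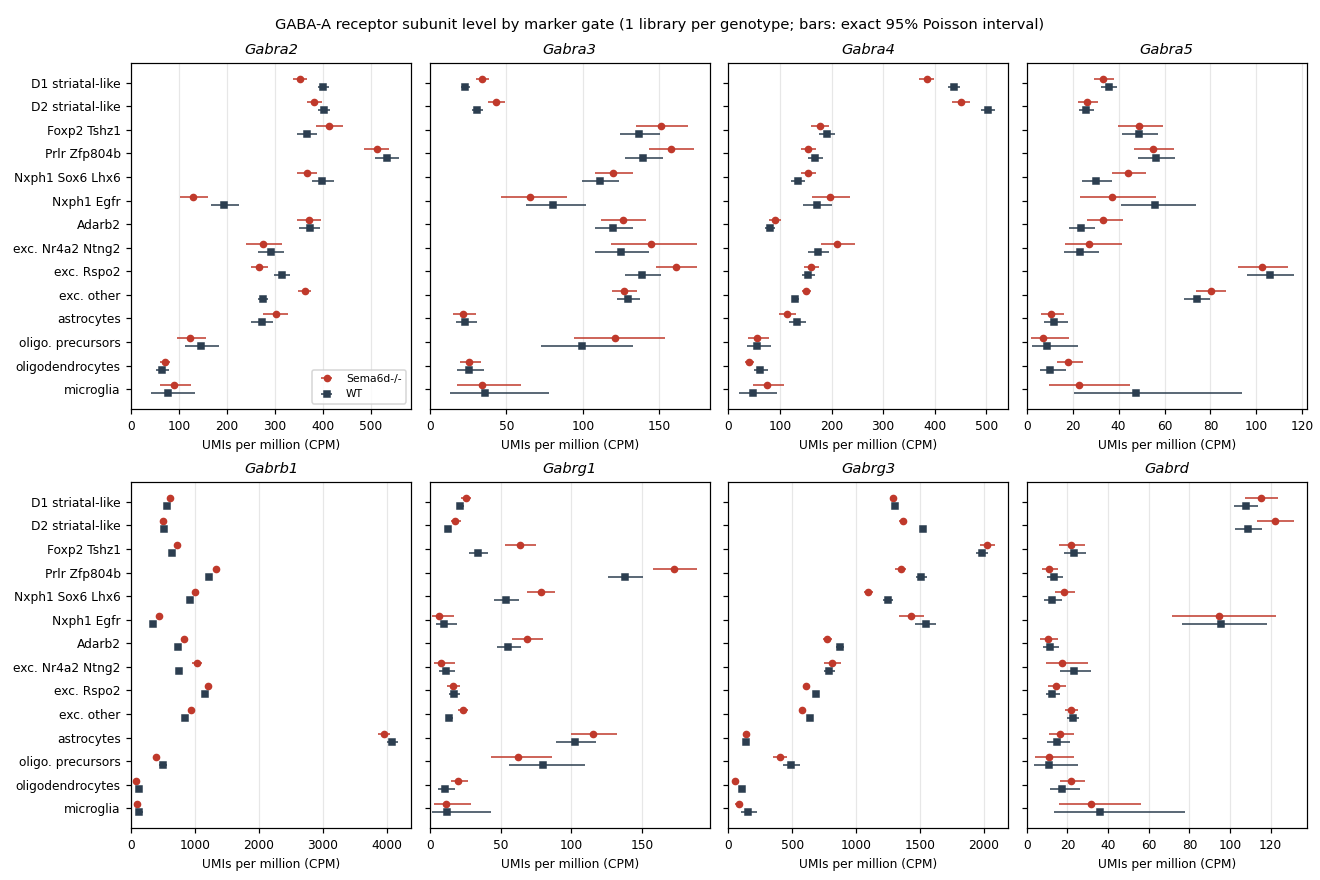
CPM of each of the 8 subunit genes (horizontal axis, linear, 1 panel per gene with its own scale) in 14 marker gates (rows), with the Sema6d-/- library as circles above the WT library as squares, and exact 95% Poisson intervals as bars. The highest gate was the same in both libraries for 7 of the 8 genes, for example astrocyte-like nuclei for Gabrb1 (3956 CPM in Sema6d-/- and 4090.5 CPM in WT) and the Foxp2 Tshz1 gate for Gabrg3 (2027 CPM in Sema6d-/- and 1984 CPM in WT).

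The 8 genes had distinct patterns over cell types, and these were alike in both libraries. For 7 of 8 members the gate with the highest level was the same in the Sema6d-/- and the WT library. These gates were the Prlr Zfp804b inhibitory neurons for Gabra2 and Gabrg1, the D2 striatal-like neurons for Gabra4 and Gabrd, the Foxp2 Tshz1 neurons for Gabrg3, the Rspo2 excitatory neurons for Gabra5 and the astrocyte-like nuclei for Gabrb1. For Gabra3 it was the Rspo2 excitatory neurons in the Sema6d-/- library and the Prlr Zfp804b neurons in the WT library. The lead over the next gate was within counting error for Gabrd and Gabra3 in both libraries. Without the nuclei of shared barcodes the highest gate was the same for 8 of 8 members.

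Gabra2 encodes the alpha2 subunit, which is tied to the anxiety-reducing effect of benzodiazepines. It was broad, with 512 CPM (486 to 539) in the Prlr Zfp804b neurons of the Sema6d-/- library and 533 CPM (509 to 558) in those of the WT library. Of the other neuron gates, 8 held between 266 and 413 CPM in both libraries. The gate that stood low was the Nxph1 Egfr inhibitory neurons, at 128 CPM in the Sema6d-/- library and 193 CPM in the WT library. Astrocyte-like nuclei held 301 CPM in the Sema6d-/- library and 273 CPM in the WT library. Microglia-like nuclei, which should lack these receptors, held 88.5 CPM in Sema6d-/- and 77.5 CPM in WT. They are shallower than neurons, with a median of 1543 UMIs in Sema6d-/- and 1546.5 UMIs in WT, so their CPM is a guide to free RNA in the droplets and not a measure of it in the neuron gates.

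Gabra3, the alpha3 subunit, was high in Rspo2 excitatory neurons, at 161 CPM (148 to 175) in the Sema6d-/- library and 139 CPM (128 to 151) in the WT library. The Prlr Zfp804b neurons stood level with them, at 158 CPM (143 to 173) in the Sema6d-/- library and 139.6 CPM (127 to 153) in the WT library. It was low in the striatal-like neurons. D1 striatal-like neurons held 34.2 CPM in the Sema6d-/- library and 23.1 CPM in the WT library, and D2 striatal-like neurons held 43.1 CPM in Sema6d-/- and 31.0 CPM in WT. Those levels are close to the 34.3 CPM in Sema6d-/- and 35.8 CPM in WT of microglia-like nuclei. Among glia, oligodendrocyte precursor-like nuclei stood apart, at 121 CPM (93.9 to 153) in the Sema6d-/- library and 99.3 CPM (72.7 to 132) in the WT library, while astrocyte-like nuclei held 21.9 CPM in Sema6d-/- and 23.0 CPM in WT.

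Gabra4 encodes the alpha4 subunit, a partner of the delta subunit in receptors outside synapses. It was highest in D2 striatal-like neurons, at 451 CPM (434 to 469) in the Sema6d-/- library and 504 CPM (490 to 518) in the WT library. D1 striatal-like neurons followed, at 385 CPM (370 to 399) in the Sema6d-/- library and 437 CPM (425 to 449) in the WT library. The intervals of D2 and D1 did not overlap in either library, and the third gate, the Nr4a2 Ntng2 neurons in the Sema6d-/- library, held 210.3 CPM. The Adarb2 inhibitory neurons were the lowest neuron gate, at 89.7 CPM in the Sema6d-/- library and 80.6 CPM in the WT library, against 74.2 CPM in Sema6d-/- and 47.7 CPM in WT in microglia-like nuclei.

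Gabra5, the alpha5 subunit, best known from extrasynaptic receptors of hippocampal pyramidal cells, was highest in Rspo2 excitatory neurons. It held 102 CPM (91.8 to 114) there in the Sema6d-/- library and 106 CPM (96.2 to 116) in the WT library. The other excitatory neurons followed, at 80.04 CPM (73.8 to 86.7) in the Sema6d-/- library and 74.0 CPM (68.4 to 79.9) in the WT library. The third excitatory gate, the Nr4a2 Ntng2 neurons, held 27.0 CPM in Sema6d-/- and 23.0 CPM in WT, and the inhibitory gates were between 23.6 and 56.2 CPM in both libraries. Microglia-like nuclei held 22.8 CPM in Sema6d-/- and 47.7 CPM in WT from 8 UMIs in each library. At this depth the lower part of the inhibitory range in Sema6d-/-, and the whole range in WT, could not be told from the microglia-like level. The same holds for the Nr4a2 Ntng2 neurons in both libraries and for the other excitatory neurons in WT.

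**Figure D2:**
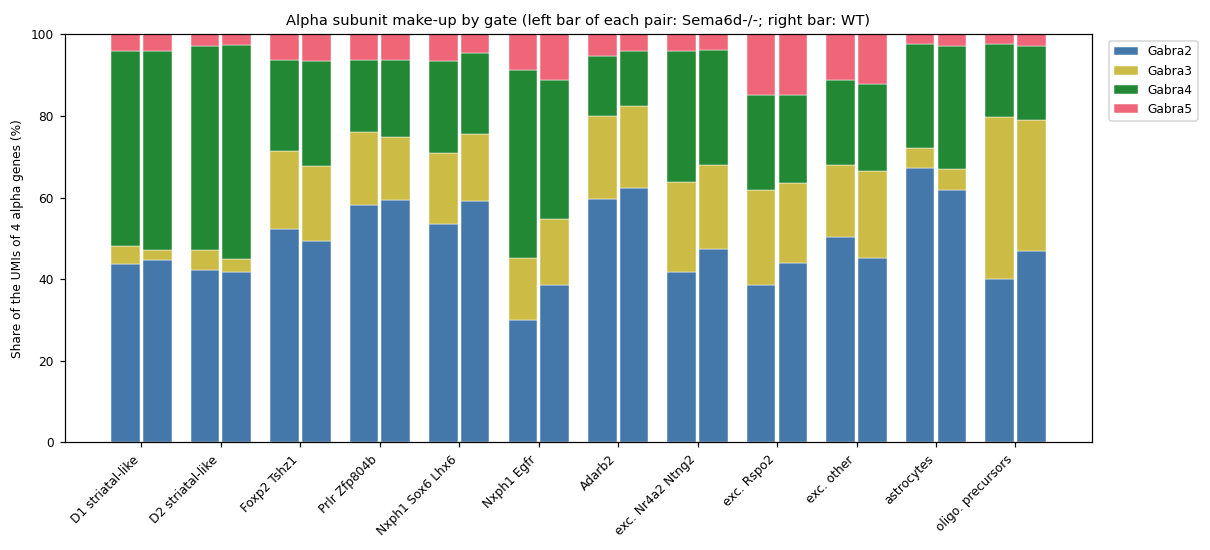
Share of the summed UMIs of Gabra2, Gabra3, Gabra4 and Gabra5 that each gene took (vertical axis, percent) in 12 gates, with the Sema6d-/- library as the left bar of each pair and the WT library as the right bar. Gabra4 took 50.01% in Sema6d-/- and 52.3% in WT in D2 striatal-like neurons, and Gabra5 took 14.82% in Sema6d-/- and 14.84% in WT in Rspo2 neurons.

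The make-up of the alpha genes, taken as each gene's share of the UMIs of these 4, set the gates apart in the same way. The shares do not correct for gene length, so they compare gates and not subunits. Gabra4 took 50.01% (48.6 to 51.4) of these UMIs in the D2 striatal-like neurons of the Sema6d-/- library and 52.3% (51.3 to 53.3) in the WT library, against 14.5% in Sema6d-/- and 13.5% in WT in Adarb2 neurons. Gabra5 took 14.82% (13.4 to 16.3) in Rspo2 neurons of the Sema6d-/- library and 14.84% (13.6 to 16.2) in the WT library, and between 2.93% and 11.13% in the remaining neuron gates of the Sema6d-/- library and 2.68% and 12.2% in those of the WT library. Gabra3 took 39.5% (32.2 to 47.3) in oligodendrocyte precursor-like nuclei of the Sema6d-/- library and 32.2% (24.6 to 40.5) in the WT library, and 4.89% in Sema6d-/- and 5.22% in WT in astrocyte-like nuclei.

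Gabrb1 encodes the beta1 subunit, which helps to form the GABA binding site. Its highest level was in astrocyte-like nuclei, with 3956 CPM in the Sema6d-/- library and 4090.5 CPM in the WT library. The next gate, the Prlr Zfp804b neurons, held 1329.7 CPM (1288 to 1372) in the Sema6d-/- library and 1213 CPM in the WT library. After thinning each nucleus to 1000 UMIs, 95.01% of astrocyte-like nuclei in the Sema6d-/- library (92.99 to 96.6) and 97.2% in the WT library (95.7 to 98.3) had a Gabrb1 UMI, or 98.3% in Sema6d-/- and 99.7% in WT before thinning. In microglia-like nuclei that share was 5.24% in the Sema6d-/- library and 13.7% in the WT library, or 8.88% in Sema6d-/- and 16.7% in WT before thinning.

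Gabrg1 encodes the gamma1 subunit, which replaces the common gamma2 subunit in a minority of receptors and lowers their response to benzodiazepines. It was highest in the Prlr Zfp804b neurons, at 173 CPM (158 to 189) in the Sema6d-/- library and 138 CPM (126 to 151) in the WT library. Astrocyte-like nuclei followed, at 115 CPM (99.7 to 132) in the Sema6d-/- library and 103 CPM (89.0 to 118) in the WT library. The Nr4a2 Ntng2 and Nxph1 Egfr neurons held between 6.74 and 11.2 CPM in both libraries, which is at the 11.4 CPM in Sema6d-/- and 11.9 CPM in WT of microglia-like nuclei.

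Gabrg3, the gamma3 subunit, was high in most inhibitory neurons. The Foxp2 Tshz1 neurons, which carry markers of intercalated cells, held 2027 CPM in the Sema6d-/- library and 1984 CPM in the WT library. The Nxph1 Egfr neurons followed at 1431 CPM in the Sema6d-/- library and 1544 CPM in the WT library. The other excitatory neurons were the lowest neuron gate, at 577 CPM in the Sema6d-/- library and 638 CPM in the WT library. Among glia, oligodendrocyte precursor-like nuclei held 404 CPM in the Sema6d-/- library and 490.0 CPM in the WT library, well above the 142 CPM in Sema6d-/- and 139 CPM in WT of astrocyte-like nuclei.

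Gabrd encodes the delta subunit, which takes the place of gamma in receptors outside synapses that carry tonic inhibition. Few of the gates compared held more of it than the microglia-like nuclei. D2 striatal-like neurons held 122 CPM (113 to 131) in the Sema6d-/- library and 109 CPM (103 to 115) in the WT library, D1 striatal-like neurons held 115 CPM in Sema6d-/- and 108 CPM in WT, and Nxph1 Egfr neurons held 94.3 CPM in Sema6d-/- and 95.5 CPM in WT, with overlapping intervals in each library. All other neuron gates had between 10.4 and 23.4 CPM, below the 31.4 CPM in Sema6d-/- and 35.8 CPM in WT of microglia-like nuclei. After thinning, 11.9% of D2 striatal-like nuclei in the Sema6d-/- library and 11.2% in the WT library had a Gabrd UMI (60.6% in Sema6d-/- and 56.4% in WT before thinning), against 1.90% in Sema6d-/- and 5.26% in WT of microglia-like nuclei (5.14% in Sema6d-/- and 5.88% in WT before thinning). Median depth was 8556 UMIs in Sema6d-/- and 7860.5 UMIs in WT in the D2 striatal-like nuclei and 1543 UMIs in Sema6d-/- and 1546.5 UMIs in WT in the microglia-like nuclei.

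Patterns over gates were compared between genes by Pearson's r of log2(CPM + 10), over 14 gates in the Sema6d-/- library and 16 in the WT library. The gates of a library share its preparation and differ in depth, so r is a description. Cholinergic neurons and mural-like nuclei enter the WT value only, so the paired values rest on unlike sets of gates. Over all gates Gabra2 and Gabrb1 had r = 0.78 in the Sema6d-/- library and 0.72 in the WT library. The values were 0.74 in Sema6d-/- and 0.72 in WT for Gabra4 and Gabrg3, and 0.72 in Sema6d-/- and 0.74 in WT for Gabra2 and Gabrg3. Microglia-like and oligodendrocyte-like nuclei were among the lowest gates for these genes, so their r values, here and below, rest in part on background levels. No r over neuron gates alone was taken. Prlr Zfp804b neurons were the highest neuron gate for both Gabra2 and Gabrb1. In the Sema6d-/- library, D2 striatal-like neurons held 381 CPM of Gabra2 and 493 CPM of Gabrb1, but Rspo2 neurons 266 and 1197 CPM. The receptor partners Gabra4 and Gabrd had 0.66 in Sema6d-/- and 0.51 in WT. Gabrg1 and Gabrd ran in opposite directions (-0.53 in Sema6d-/-, -0.53 in WT), as did Gabra3 and Gabrd (-0.51 in Sema6d-/-, -0.53 in WT). Because Gabrd lay below the microglia-like level in most neuron gates, its r values, here and below, rest in large part on background levels. Among 7454 other named genes, those most like Gabrg3 in the WT library were Eml5, Nrxn3, a presynaptic adhesion protein, and Hmgcll1, with r of 0.91 to 0.95 in the Sema6d-/- library and 0.94 to 0.95 in the WT library. For Gabra3 they were Sez6l, Lrfn2, a synaptic adhesion protein, and Usp13, a deubiquitinase, with r of 0.82 to 0.97 in the Sema6d-/- library and 0.91 to 0.93 in the WT library.

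For Gabra2 the genes of most similar pattern were Arhgap26, Ptpn12, a tyrosine phosphatase, and Mok (0.78 to 0.92 in Sema6d-/-, 0.89 to 0.91 in WT). For Gabra4 they were Sh2d5, Traip and Kif17, a dendritic kinesin (0.83 to 0.88 in the Sema6d-/- library, 0.89 to 0.90 in the WT library). Gabrb1 was most like Ppil6 (0.89 in Sema6d-/-, 0.89 in WT), Fmn2, a formin (0.93 in Sema6d-/-, 0.88 in WT), and Rabep1, an endosomal protein, whose r was 0.57 in Sema6d-/- and 0.87 in WT. Gabrd was most like Ranbp2, a nuclear pore protein, Sec14l1 and Kcna4, a potassium channel, with 0.60 to 0.86 in the Sema6d-/- library and 0.85 to 0.89 in the WT library. In the WT library the likeness was weakest for Gabra5 and Gabrg1, whose 3 most similar genes each had r between 0.76 and 0.88 in the Sema6d-/- library and between 0.76 and 0.81 in the WT library.

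**Figure D3:**
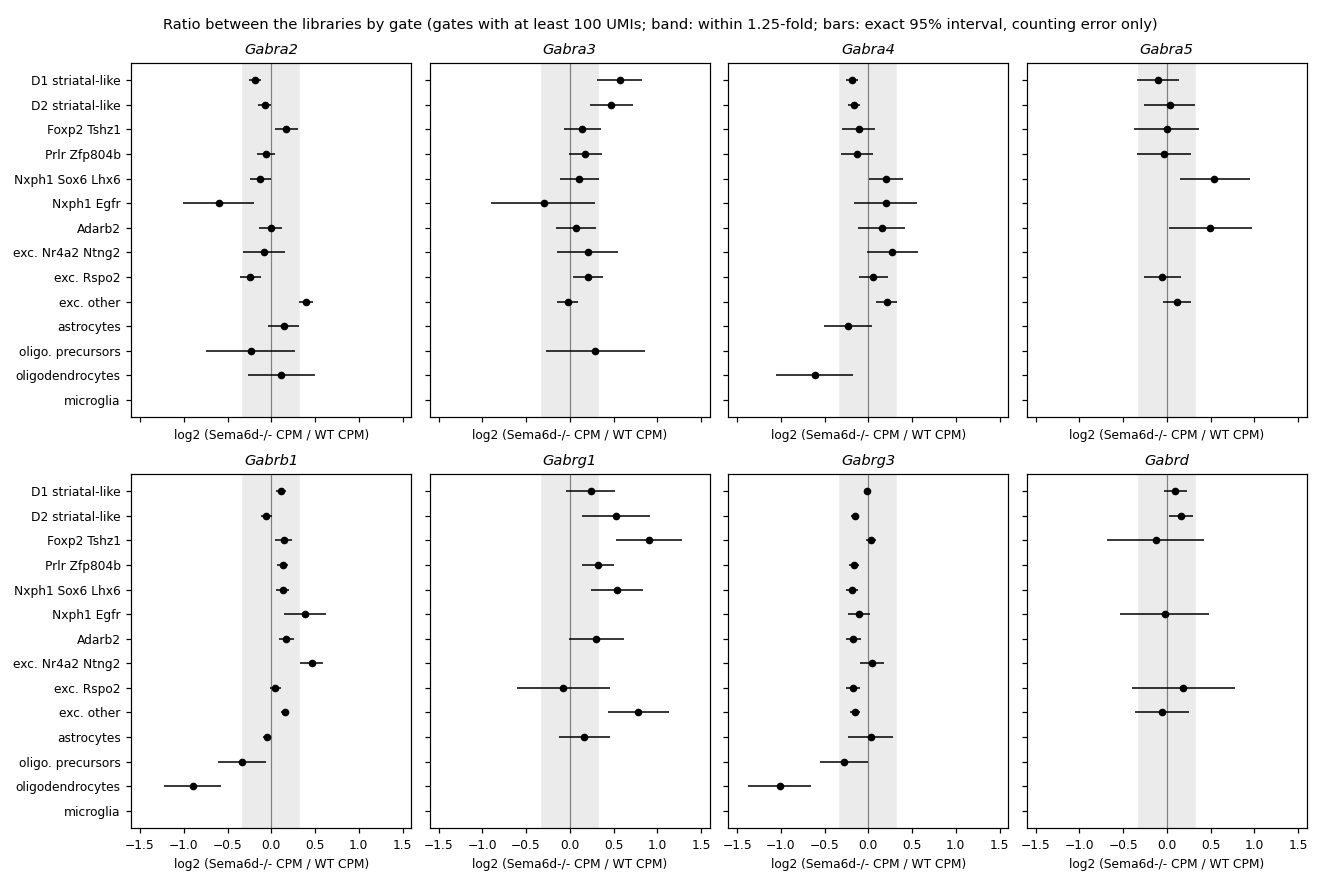
log2 of CPM in the Sema6d-/- library over CPM in the WT library for each gene (panels) in each gate with at least 100 UMIs of it (rows). Bars are exact 95% intervals for counting error and the grey band marks log2 ratios within 0.32 of 0. Gabrg1 lies right of 0 in 7 of 8 neuron gates, and Gabrb1 and Gabrg3 lie left of the band in oligodendrocyte-like nuclei.

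Between the libraries, Gabrg1 was the member that passed the fold in the most neuron gates. In inhibitory neurons it held 71.1 CPM (68.1 to 74.2) in the Sema6d-/- library and 48.7 CPM (46.7 to 50.8) in the WT library, a log2 ratio of 0.55 (0.46 to 0.63). In excitatory neurons it held 20.3 CPM in Sema6d-/- and 14.6 CPM in WT (log2 ratio 0.48, 0.21 to 0.75). The excitatory levels are low: oligodendrocyte-like nuclei, with 20.2 CPM in the Sema6d-/- library and 10.9 CPM in the WT library, stood as high. Astrocyte markers, of a type in which Gabrg1 is high, summed to 61.9 CPM over 6 genes in the excitatory neurons of the Sema6d-/- library and 51.1 CPM in the WT library, and to 82.1 CPM in Sema6d-/- and 72.7 CPM in WT in inhibitory neurons, with none of the 6 at 0. Their part in the ratio was not tested.

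Gabrg1 had at least 100 UMIs in 8 of the 10 neuron gates and was above 0 on the log2 scale in 7 of 8, with a median log2 ratio of 0.43. All gates come from the same pair of libraries, so signs over gates, here and below, are not independent. The share of all genes with such a run of signs was not counted. Gabrg1 passed the fold in 5 of these 8 gates. Of the others it stood at 0.24 in D1 striatal-like, at 0.31 in Adarb2 and at -0.07 in Rspo2 neurons, and these ratios moved with the grouping of nuclei. The D1 ratio ran between 0.07 with stricter gates and 0.62 with clusters in place of gates. The Adarb2 ratio was -0.13 with clusters and -0.01 with stricter gates. The Rspo2 ratio passed the fold downward with stricter gates (-0.37) and with clusters (-0.34), and was 0.23 with doublets kept. Of 6774 genes with 100 UMIs in at least 8 neuron gates, 5.08% were higher by that fold in 5 or more. Both limits were taken from the counts of Gabrg1, the member with the most such gates. That set also holds genes with more UMIs, so the share does not measure how unusual Gabrg1 is. The widest ratio was in the Foxp2 Tshz1 neurons, with 63.6 CPM (53.2 to 75.4) in the Sema6d-/- library and 33.9 CPM (27.9 to 40.9) in the WT library (log2 ratio 0.91, 0.53 to 1.28). There 23.5% of 7380 genes passed the fold in either direction. With nuclei grouped by clusters in place of gates, that ratio was 0.23. The ratio in Prlr Zfp804b neurons, 0.33, lay just past the fold and was 0.21 with clusters; it stayed past the fold in 4 of 8 alternatives.

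The other gates past the fold for Gabrg1 were the Nxph1 Sox6 Lhx6 neurons, with 78.4 CPM in the Sema6d-/- library and 53.8 CPM in the WT library, the D2 striatal-like neurons, with 18.1 CPM in Sema6d-/- and 12.6 CPM in WT, and the other excitatory neurons, with 23.3 CPM in Sema6d-/- and 13.5 CPM in WT (log2 ratio 0.78, 0.44 to 1.13). Glial markers moved with the call in the Nxph1 Sox6 Lhx6 neurons, where the 6 astrocyte markers summed to 113 CPM in the Sema6d-/- library and 67.2 CPM in the WT library, and 5 oligodendrocyte markers to 178 CPM in Sema6d-/- and 96.4 CPM in WT. In the other excitatory neurons the astrocyte markers summed to 61.5 CPM in Sema6d-/- and 47.8 CPM in WT, and in the Foxp2 Tshz1 neurons to 76.5 CPM in Sema6d-/- and 94.7 CPM in WT. The part of these markers in the ratios was not tested. The share of genes past the fold in either direction was 23.8% in Prlr Zfp804b neurons, 22.9% in Nxph1 Sox6 Lhx6 neurons, 23.3% in D2 striatal-like neurons and 26.1% in the other excitatory neurons. In the D2 striatal-like and the other excitatory gate, Gabrg1 was near the 20.2 CPM in Sema6d-/- and 10.9 CPM in WT of oligodendrocyte-like nuclei. After thinning, 7.91% of Foxp2 Tshz1 nuclei in the Sema6d-/- library (5.19 to 11.5) and 2.77% in the WT library (1.52 to 4.61) had a Gabrg1 UMI, or 20.3% in Sema6d-/- and 13.7% in WT before thinning. In Prlr Zfp804b nuclei the thinned share was 15.9% (12.01 to 20.5) in the Sema6d-/- library and 10.9% (8.12 to 14.2) in the WT library, or 57.1% (Sema6d-/-) and 49.4% (WT) before thinning. Of microglia-like nuclei 1.43% in the Sema6d-/- library and 0 of 95 in the WT library, whose exact binomial interval reaches 3.81%, had one after thinning, and 1.87% (Sema6d-/-) and 1.96% (WT) before it.

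**Figure D4:**
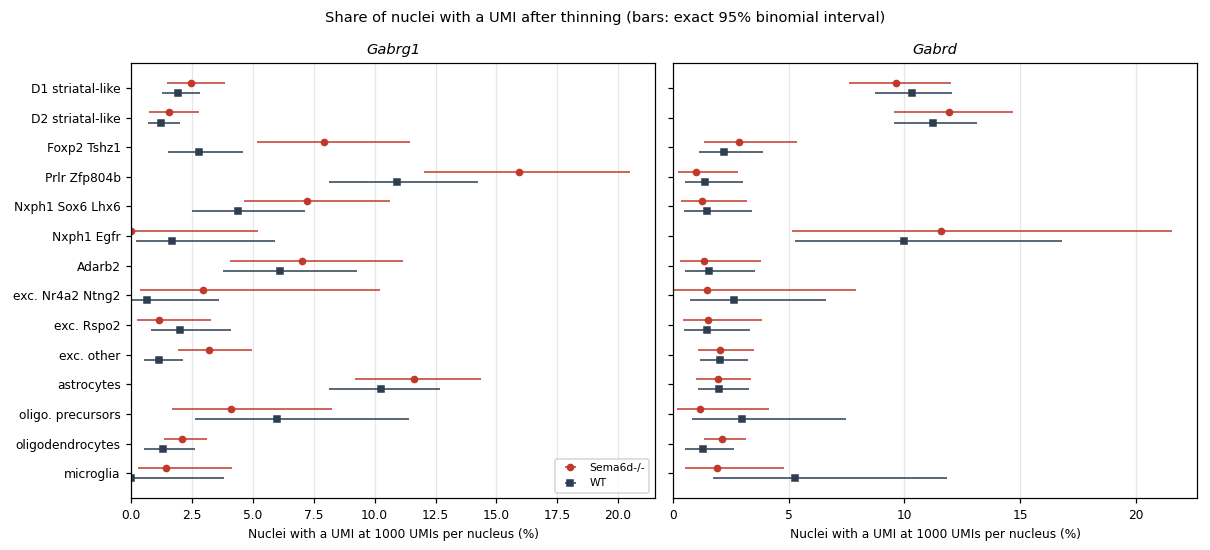
Percent of nuclei with at least 1 UMI of Gabrg1 (left) and Gabrd (right) after each nucleus was thinned to 1000 UMIs, by gate, with the Sema6d-/- library as circles above the WT library as squares, and exact 95% binomial intervals as bars. For Gabrg1 the Foxp2 Tshz1 nuclei stood at 7.91% in Sema6d-/- and 2.77% in WT, and for Gabrd the D2 striatal-like nuclei stood at 11.9% in Sema6d-/- and 11.2% in WT.

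Over all inhibitory neurons 2 of 8 members passed the fold, Gabrg1 and Gabra3, both higher in the Sema6d-/- library, where 22.7% of 14311 genes passed it in either direction and 14.7% were higher. A share of 2 in 8 is close to that background. The median log2 ratio of the 8 was -0.02, against 0.04 over all genes. Gabra3 held 87.1 CPM (83.8 to 90.5) in the Sema6d-/- library and 68.9 CPM (66.5 to 71.3) in the WT library, a log2 ratio of 0.34 that lay inside the fold, at 0.24, when the inhibitory gates had the same weights in both libraries. It also lay inside it with TMM scaling (0.28), median-of-ratios scaling (0.27) and thinned nuclei (0.31).

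Gabra3 passed the fold in the D1 striatal-like neurons (log2 ratio 0.57, 0.31 to 0.82) and the D2 striatal-like neurons (0.47, 0.23 to 0.72), both at the low levels given above, and in no other gate. In D1 striatal-like neurons 22.0% of genes passed it in either direction. On thinned nuclei the D1 ratio was 0.18 and the D2 ratio 1.34, and with clusters in place of gates the D1 ratio was 0.97. In the Rspo2 neurons, where it is high, the log2 ratio was 0.21 (0.04 to 0.38), inside the fold.

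In excitatory neurons 1 of 8 members, Gabrg1, passed the fold, against 24.8% of 11836 genes. The median log2 ratio of the 8 was 0.13, with 0.02 over all genes. Within the excitatory gates, Gabra2 held 362 CPM (348 to 375) in the other excitatory neurons of the Sema6d-/- library and 275 CPM (264 to 286) in those of the WT library (log2 ratio 0.40, 0.32 to 0.48), or 0.29 with clusters in place of gates and 0.28 on thinned nuclei. It was below 0 in 8 of the 10 neuron gates, with a median of -0.08. Gabrb1 in the Nr4a2 Ntng2 neurons held 1025 CPM (953 to 1100.2) in the Sema6d-/- library and 745 CPM (703 to 788) in the WT library (log2 ratio 0.46, 0.33 to 0.59), in a gate of 68 nuclei in Sema6d-/- and 152 nuclei in WT where 31.8% of genes passed. On thinned nuclei that ratio was 0.16. Gabrb1 was above 0 in 9 of the 10 neuron gates, with a median of 0.14. These signs come from the same pair of libraries and are not independent.

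Gabra5 passed the fold in 2 gates. Nxph1 Sox6 Lhx6 neurons held 44.0 CPM (37.0 to 52.0) in the Sema6d-/- library and 30.2 CPM (24.2 to 37.2) in the WT library (log2 ratio 0.54), and Adarb2 neurons held 33.4 CPM in Sema6d-/- and 23.6 CPM in WT (0.50). Both reversed under 1 alternative each, at -0.32 on thinned nuclei in Nxph1 Sox6 Lhx6 neurons, from 28 UMIs, and at -0.35 with clusters in place of gates in Adarb2 neurons. The WT levels of both gates lay below the microglia-like level of Gabra5, which rests on 8 UMIs in each library. In Rspo2 neurons, where Gabra5 is highest, its log2 ratio was -0.05 (-0.26 to 0.16), and 0 of the 8 members passed the fold there, against 27.4% of genes. With clusters in place of gates Gabra4 (0.50), Gabrd (0.51, from 63 UMIs) and Gabrg1 (-0.34, from 61 UMIs) lay past it there. The share of genes past the fold was 23.1% in Adarb2 neurons.

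The Nxph1 Egfr neurons, a gate of 69 nuclei in the Sema6d-/- library and 120 in the WT library, held less Gabra2 (log2 ratio -0.59, -1.004 to -0.20) and more Gabrb1, at 441 CPM in the Sema6d-/- library and 338 CPM in the WT library (0.39, 0.14 to 0.63). The background was 24.4% of 2905 genes, and the Gabrb1 ratio was 0.08 with clusters in place of gates. In this gate the 4 inhibitory markers summed to 2844 CPM in the Sema6d-/- library and 1986 CPM in the WT library. The 6 astrocyte markers summed to 231 CPM in Sema6d-/- and 184 CPM in WT, and 5 oligodendrocyte markers to 185 CPM in Sema6d-/- and 244 CPM in WT. The part of these markers in both ratios was not tested. Among the 10 neuron gates compared, Gabra4, Gabrg3 and Gabrd passed the fold in none of those in which they had 100 UMIs. Under alternatives Gabra4 passed it in Adarb2 neurons with stricter gates (0.42) and on thinned nuclei (0.87), in Nr4a2 Ntng2 neurons on thinned nuclei (0.34) and in Rspo2 neurons with clusters, and Gabrg3 did in Nxph1 Egfr neurons on thinned nuclei (-0.39). Gabrd did in Rspo2 neurons with clusters, and on thinned nuclei in Foxp2 Tshz1 (0.39, from 20 UMIs) and Nxph1 Egfr neurons (0.38, from 21 UMIs). Gabrg3 was below 0 on the log2 scale in 8 of its 10 gates, with ratios between -0.19 and 0.04, and Gabra4 was between -0.18 and 0.28. Gabra4 over all inhibitory neurons held 275 CPM in the Sema6d-/- library and 329 CPM in the WT library (log2 ratio -0.26), a wider gap than in D1 (-0.18) or D2 (-0.16) striatal-like neurons; those gates held 739 and 653 of the 3401 inhibitory nuclei in the Sema6d-/- library and 1349 and 1228 of 5586 in the WT library. With the same subtype weights in both libraries that ratio was -0.18.

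In astrocyte-like nuclei 0 of the 5 members with 100 UMIs passed the fold, against 28.1% of 6138 genes. Gabrb1 had a log2 ratio of -0.05 (-0.09 to -0.0019) there, and Gabrg1 0.17 (-0.12 to 0.45). In oligodendrocyte precursor-like nuclei 1 of 4 passed, against 28.7% of 1891 genes. That was Gabrb1, with 393 CPM (343 to 449) in the Sema6d-/- library and 496 CPM (434 to 565) in the WT library (log2 ratio -0.34, -0.61 to -0.06), or -0.24 with clusters in place of gates. The thinned share of these nuclei with a Gabrb1 UMI was 25.7% (19.4 to 33.0) in the Sema6d-/- library and 40.3% (31.9 to 49.1) in the WT library, or 61.0% in Sema6d-/- and 66.4% in WT before thinning.

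In oligodendrocyte-like nuclei 3 of 4 members were lower in the Sema6d-/- library, against 32.7% of 6012 genes past the fold in either direction and 16.6% lower. Gabrg3 held 51.2 CPM (42.4 to 61.3) in the Sema6d-/- library and 103 CPM (87.0 to 122) in the WT library (log2 ratio -1.01, -1.38 to -0.65). Gabrb1 held 67.1 CPM (57.0 to 78.6) in Sema6d-/- and 125 CPM (107 to 145) in WT (-0.90), and Gabra4 held 40.5 CPM in Sema6d-/- and 61.9 CPM in WT (-0.61). Microglia-like nuclei held 79.9 CPM of Gabrg3 in the Sema6d-/- library and 155 CPM in the WT library, 82.8 CPM in Sema6d-/- and 125 CPM in WT of Gabrb1, and 74.2 CPM in Sema6d-/- and 47.7 CPM in WT of Gabra4, with at most 29 UMIs behind each value. The oligodendrocyte-like levels of these genes are near or below that background, so they are not read as expression. Neuron markers summed over 14 genes, of which a glial nucleus could hold at most 5 UMIs by the gate's own rule, stood at 693 CPM in the oligodendrocyte-like nuclei of the Sema6d-/- library and 694 CPM in those of the WT library.

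Of 23 other genes of GABA signalling, 2 of the 18 with 100 UMIs in inhibitory neurons were higher and 0 lower, where 22.7% of all genes passed the fold in either direction. They were Slc32a1, the vesicular GABA transporter, which is itself a marker of that gate (107 CPM in the Sema6d-/- library, 76.3 CPM in the WT library, log2 ratio 0.48), and Gabrq, the theta subunit (2.60 CPM in Sema6d-/- and 1.93 CPM in WT, log2 ratio 0.43). In excitatory neurons, against 24.8% of all genes, 0 of 17 were higher and 1 lower, Lhfpl4, which helps to hold the receptor at inhibitory synapses (29.3 CPM in Sema6d-/- and 37.3 CPM in WT, log2 ratio -0.35). Within the Rspo2 neurons 5 of 17 passed, a share near the background of 27.4% in either direction. They were Gad2, Abat, Lhfpl4, Gabbr2 and Nlgn2, all lower in the Sema6d-/- library, and no background for lower genes alone is given. Gad2 is a marker of inhibitory neurons, and the excitatory gate itself limits its level. The medians of the list were 0.09 in inhibitory and -0.11 in excitatory neurons. In astrocyte-like nuclei 3 of 14 were higher and 0 lower, against 28.1% of all genes, among them the GABA transporter Slc6a11, with 492 CPM in the Sema6d-/- library and 298 CPM in the WT library (log2 ratio 0.72). In oligodendrocyte precursor-like nuclei 1 of 6 was higher and 1 lower (28.7% of all genes passed), and in oligodendrocyte-like nuclei 3 of 15 were higher and 1 lower (32.7% of all genes passed).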

How the data were processed

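The deposited matrices hold raw UMI counts of 32285 Ensembl genes per nucleus barcode, made with Cell Ranger 6.0.0 and mm10 per the submitters' processing notes, and with a 10x 5' v2 kit per the labels. Nothing states whether intronic reads or strand were used in counting. These libraries held 8666 barcodes and 60402979 UMIs (Sema6d-/-) and 11060 barcodes and 85124128 UMIs (WT). Symbols came from GENCODE M21, which matched 32158 identifiers.

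Barcodes under 500 genes (143 in the Sema6d-/- library, 12 in the WT library) or over 5% mitochondrial UMIs (428 in Sema6d-/-, 259 in WT) were left out, as were doublets called by Scrublet in scanpy 1.11.5 (222 in Sema6d-/-, 422 in WT). Each remaining nucleus was given to a gate from its UMIs per 10000 of marker genes. Gates of neurons are named by their marker genes, and the others by the cell type with "-like". Gate limits were set after values had been seen, and between 50 and 647 nuclei of a neuron gate compared lay within 1.5 times a limit. UMIs were summed per gate and library and divided by the gate's total, with exact 95% Poisson intervals for levels and exact binomial (Clopper-Pearson) intervals for shares and ratios. Before shares were compared, nuclei were thinned to 1000 UMIs, which left out 183 nuclei of the Sema6d-/- library and 103 of the WT library. UMIs in microglia-like nuclei, which are shallower than neurons, serve as a guide to free RNA.

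The members, the 23 other GABA genes and the marker lists were chosen with earlier results of these data known. Up to 4 of the 23 with the largest ratios were named per class, and in Rspo2 neurons the 5 past the fold. For each member the 3 genes of most similar pattern over gates in the WT library were named, among genes with at least 50 CPM in a gate. Some genes and a subdivision of the excitatory neurons are not reported here. Alternatives were stricter gates (limits raised 1.5 times), Leiden clusters (leidenalg 0.10.2) in place of gates, doublets kept and at least 1000 genes per nucleus. Others were thinned nuclei, TMM (edgeR 4.0.16) and median-of-ratios scaling, at least 20 UMIs and the same subtype weights in both libraries. Nuclei with shared barcodes were also left out, an alternative chosen after seeing the data. Each cluster went whole, with its ungated nuclei, to the commonest gate among its gated nuclei. That gate held 20.0% of the gated nuclei in a cluster given to D1 striatal-like neurons. It held 27.1% in a cluster given to the other excitatory neurons. The ratio and interval steps were tested on simulated data. Bulk sums cannot tell fewer expressing nuclei from less RNA per nucleus.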

Additional observations from a re-analysis of the deposited data

Results flagged for a closer look

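Gabra2 and Gabrb1 are listed because their ratios passed the fold in opposite directions in different gates. For Gabra2 the log2 ratio of the Sema6d-/- over the WT library was 0.40 in the other excitatory neurons and -0.59 in Nxph1 Egfr neurons, the second from 76 UMIs in the Sema6d-/- library and 170 in the WT library. For Gabrb1 it was 0.39 in Nxph1 Egfr neurons and 0.46 in Nr4a2 Ntng2 neurons, against -0.34 in oligodendrocyte precursor-like nuclei and -0.90 in oligodendrocyte-like nuclei. The oligodendrocyte-like level of Gabrb1 lay near or below that of microglia-like nuclei and is not read as expression. With 1 library per genotype these differences between gates were not tested. Marker sums in the Nxph1 Egfr neurons also differed between the libraries, as given above.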

How the results depend on the processing

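The count of members past the fold kept its value or stayed within 1.5 times of it under most alternatives. In excitatory neurons it was 1 and became 0 on thinned nuclei, where 6 members had 100 UMIs and Gabrg1 was not among them. The Gabrg1 ratio in excitatory neurons was past the fold in 9 of 9 alternatives (0.37 to 0.81). In inhibitory neurons the count was 2 and became 1 on thinned nuclei, with TMM scaling, with median-of-ratios scaling and with the same subtype weights. Gabrg1 stayed past the fold in 9 of 9 alternatives there (0.44 to 0.71). In oligodendrocyte-like nuclei the count was 3, all lower, and became 6 with a minimum of 20 UMIs, the 3 added ones (Gabra5, Gabrg1 and Gabrd) being higher. In oligodendrocyte precursor-like nuclei it was 1, became 0 with doublets kept and 2 with a minimum of 20 UMIs. With clusters in place of gates, Gabrb1 lay inside the fold there (-0.24), and Gabra3 lay past it upward (0.45). In astrocyte-like nuclei it was 0 in each alternative run. Members with the same highest gate in both libraries numbered 7, and 6 to 8 under the alternatives. Of 739 alternative values of 101 single ratios, 635 stayed within the counting interval and 102 moved outside it. Ratios inside the fold changed sign in 63 of these values, over 36 ratios. Of the ratios past the fold 2 changed sign: Gabra5 in Nxph1 Sox6 Lhx6 neurons at -0.32 on thinned nuclei and in Adarb2 neurons at -0.35 with clusters. The causes were not tested. No paired analysis was possible because each genotype has 1 library. The counts limit members under 100 UMIs in a gate, and differences between animals, dissections and preparations cannot be told apart from genotype.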

Other observations

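Gates with fewer than 50 nuclei in a library were not compared, but some members stood out there. The Sst Nos1 Npy neurons, with 37 nuclei in the Sema6d-/- library and 47 in the WT library, held 574 CPM of Gabra2 (486 to 673) in the Sema6d-/- library and 568 CPM (487 to 659) in the WT library, and little Gabrg3, at 156 CPM (112 to 211) in the Sema6d-/- library and 139.5 CPM (101 to 188) in the WT library. Gabra2 took 71.9% of the UMIs of the 4 alpha genes there in the Sema6d-/- library. Gabrd had 0 UMIs in the Sema6d-/- library and 2 in the WT library in these neurons. The cholinergic neurons, with 37 nuclei in Sema6d-/- and 91 in WT, held 1234 CPM of Gabrb1 (1135 to 1341) in the Sema6d-/- library and 1263 CPM (1196 to 1333) in the WT library. Gabra4 held 78.8 CPM in the Sema6d-/- library and 120.3 CPM in the WT library there, from 36 UMIs in Sema6d-/- and 127 in WT (log2 ratio -0.61, -1.19 to -0.07), and Gabra2 322 CPM in Sema6d-/- and 421 CPM in WT (-0.39, -0.67 to -0.12). Gabra3 (0.10), Gabrb1 (-0.03) and Gabrg3 (0.06) lay within the fold there. For this gate no share of all genes past the fold was taken, and no alternative was run. Gabrd stood at 6.57 CPM in the Sema6d-/- library and 5.68 CPM in the WT library there, below the level of microglia-like nuclei.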
